A study of Homo sapiens with 6 samples.

Results

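Basement membranes are the thin sheets of matrix under epithelia, and the mRNAs of their main proteins were followed here together with that of fibronectin, in a study of RNA bound by AEG-1. The 10 members were FN1, LAMA1, LAMA5, LAMB1, LAMB2, LAMC1, AGRN, HSPG2, NID1 and COL4A2. They were chosen by name with earlier results of these data known, and every site deposited under one of these symbols was taken. Of the 10, 9 had a site in at least 1 of the 6 libraries, among 8204 genes with a site in any library. LAMA1 had no site in any library. Each of the 9 members was listed on a single mRNA.

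AEG-1, the product of MTDH, is a protein of the endoplasmic reticulum membrane, and the series mapped the RNA fragments that stay attached to it. All 6 libraries came from the line AEG-1-14, which stably expresses AEG1 tagged with HA at the C-terminal end, in a background that the labels spell HepG3 and describe as hepatoblastoma. The 4 groups were HITS-CLIP AEG1 (2 libraries, cells irradiated at 254 nm), HITS-CLIP negative control (2 libraries, no irradiation), PAR-CLIP AEG1 (1 library, 365 nm) and PAR-CLIP negative control (1 library, no irradiation). The controls differ from the AEG1 libraries in the UV step and share the tagged protein and the anti-HA precipitation. The line is an overexpressing one, the labels do not say whether the HITS-CLIP duplicates were separate cultures, and PAR-CLIP has no replicate.

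A basement membrane is built from laminins, each a trimer of an alpha, a beta and a gamma chain, and from a network of type IV collagen. Nidogen and the heparan sulfate proteoglycans agrin and perlecan tie these networks together. Fibronectin is a secreted dimer that cells assemble into fibrils through integrins, and liver cells also release it into plasma. All of these are long secretory proteins whose mRNAs are translated at the endoplasmic reticulum.

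The HITS-CLIP AEG1 libraries held 6378 and 5651 sites on 1862 and 1702 genes, and their controls held 60 and 90 sites on 49 and 78 genes. PAR-CLIP AEG1 held 60085 sites on 8009 genes, and its control 121 sites on 66 genes. Of 9 markers of liver-derived epithelium 8 had a site in both HITS-CLIP AEG1 libraries, among them AFP, alpha-fetoprotein, with 15 and 14. Summed over those 9 markers the sites were 59 and 59 in HITS-CLIP AEG1, 12 and 11 in its controls, 42 in PAR-CLIP AEG1 and 18 in its control. Most of those control sites were on ALB, albumin, singled out after its values were seen, with 5 and 10 sites in HITS-CLIP AEG1, 11 and 9 in its controls, 3 in PAR-CLIP AEG1 and 13 in its control. None of 4 endothelial markers had a site in any library, and of 6 markers of fibroblasts and stellate cells only ACTA2 had any, 3 in PAR-CLIP AEG1. Of 4 leukocyte markers, CD68, which is also a lysosomal protein, had 3 and 3 sites in HITS-CLIP AEG1 and 13 in PAR-CLIP AEG1, and CD14 had 1, 0 and 6 in the same libraries. RNA abundance was not analysed here, so more sites on an mRNA and more copies of that mRNA cannot be told apart.

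In HITS-CLIP AEG1 the members carried 242 and 208 sites, against 0 and 0 in the HITS-CLIP negative controls. In PAR-CLIP AEG1 they carried 231, against 3 in the PAR-CLIP negative control. The HITS-CLIP AEG1 and control libraries did not overlap, with 225 ± 24.0 sites against 0 ± 0 (SD, n = 2 each). A two-sided exact permutation test gave p = 0.333, the smallest p that 2 libraries against 2 allow. The member share of all sites was 3.79% and 3.68% in the AEG1 libraries, whereas the 0 of 60 and 0 of 90 sites in the shallow controls have exact 95% intervals of 0% to 5.96% and 0% to 4.02%, which reach past both of those shares. The member counts thus lay apart, between libraries of 6378 and 5651 sites and controls of 60 and 90. They are not scaled for this depth, at which a difference in share was not detectable. In the PAR-CLIP negative control the 3 member sites, all on FN1, were 2.48% of 121 (exact 95% interval 0.514% to 7.07%). In PAR-CLIP AEG1 the share was 0.384% (0.337% to 0.437%), below that of its control. The 231 sites against 3 are therefore not a higher member share in PAR-CLIP AEG1.

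**Figure D1:**
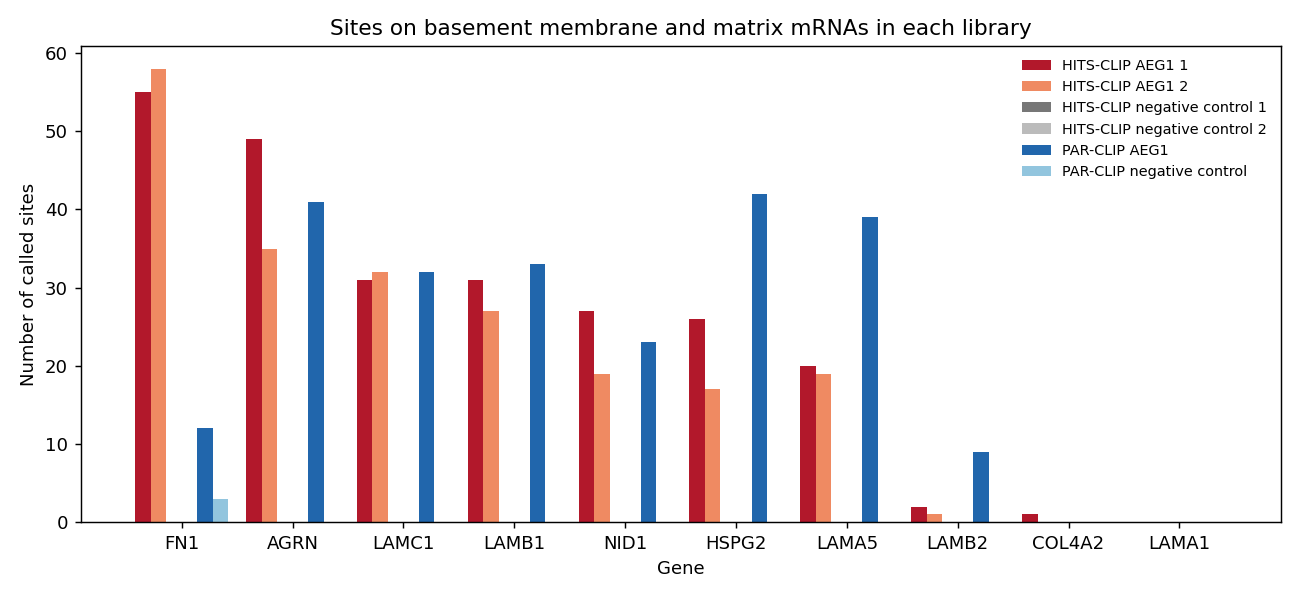
Number of called sites (y axis) on each member mRNA (x axis) in the 6 libraries, 1 bar per library. FN1 and AGRN are highest in HITS-CLIP AEG1, HSPG2 and AGRN are highest in PAR-CLIP AEG1, and the only control sites are the 3 on FN1.

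By presence, 8 of the 9 members with any site had one in both HITS-CLIP AEG1 libraries, where 16.1% of all 8204 genes did. The same 8 had a site in PAR-CLIP AEG1, beside 97.6% of all genes, so presence in PAR-CLIP does not set the members apart from other genes. No member had a site in a HITS-CLIP negative control, beside 1.15% of all genes, and 1 had a site in the PAR-CLIP negative control, beside 0.804%. The member share of all sites was 3.74% ± 0.0803 in HITS-CLIP AEG1 (SD, n = 2) and 0.384% in PAR-CLIP AEG1 (exact 95% interval 0.337% to 0.437%), a ratio of 9.72. The number of member sites was alike in both methods (225 on average and 231), and the numbers of all sites were not. Above the median score of all sites the likeness did not hold, with 80.5 member sites over control in HITS-CLIP and 119 in PAR-CLIP. The score has a scale of its own on each mRNA, so this cut does not compare the methods at like amounts. The highest FN1 scores in HITS-CLIP AEG1, 5.86 and 5.69, lay below that median of 6.72, so all HITS-CLIP sites of FN1 fell out. Among the 2243 genes with a HITS-CLIP AEG1 site, 3 members stood in the top 10 by mean number of sites and 7 in the top 50, though 0 stood in the top 50 by sites per kb. Among the 8009 genes with a PAR-CLIP AEG1 site, 0 stood in the top 10 and 2 in the top 50.

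Amounts within a site come from the deposited score, which is on a log2 scale. On each mRNA, 2 to the power of the score was a whole number times 1 of 4 fixed multipliers times a constant of that mRNA which all libraries shared, at 683 of 683 sites of the 8 members with enough sites. That whole number is called a unit here. Units can be compared between libraries on 1 mRNA, and not between genes. Whether 1 unit is a read or something else could not be settled from the files.

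FN1 encodes fibronectin, the adhesive glycoprotein described above. It carried 55 and 58 sites in HITS-CLIP AEG1, 0 and 0 in the HITS-CLIP negative controls, 12 in PAR-CLIP AEG1 and 3 in the PAR-CLIP negative control. Only 1 of the 2243 genes with a HITS-CLIP site had more of them, whereas by PAR-CLIP sites FN1 ranked 1395 of 8009. The low PAR-CLIP number goes with very wide sites. The HITS-CLIP sites had median widths of 81 and 80.5 nt and covered 59.3% and 60.4% of the mRNA up to its furthest site end. The 12 PAR-CLIP sites had a median width of 445.5 nt, the widest spanning 2328 nt, and covered 7895 nt, or 98.7% of the same stretch. In units the methods were close, with 1133 and 1068 summed over HITS-CLIP sites and 1160 over PAR-CLIP sites. FN1 was the 1 member of 8 with more sites in both HITS-CLIP AEG1 libraries than in PAR-CLIP AEG1, beside 10.1% of 1244 genes with a site in all of these libraries. By units neither HITS-CLIP AEG1 library exceeded PAR-CLIP AEG1 on FN1, although its ratio of units was above that of 91.9% of the genes described below.

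The heaviest HITS-CLIP site of FN1 lay at the same place in both replicates, at nt 707-1175 with 176 units and at nt 709-1039 with 157. The heaviest PAR-CLIP site ran from nt 1163 to 3490 with 383 units. The control sites were at nt 73-122, 2691-2742 and 4607-4680, with 2, 1 and 1 units. Their sum of 4 stands against 1160 in PAR-CLIP AEG1, and neither is scaled for depth. Over all mRNAs with fitted units, the control summed to 281 units and PAR-CLIP AEG1 to 290769. By sites FN1 had 3 of 121 in the control and 12 of 60085 in PAR-CLIP AEG1. By both measures FN1 held a larger part of the control than of PAR-CLIP AEG1.

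Among the laminin chains, LAMB1 and LAMC1 had almost the same numbers of sites. LAMB1, the beta chain of the common laminins, carried 31 and 27 sites in HITS-CLIP AEG1 and 33 in PAR-CLIP AEG1, with 0 in every control. LAMC1, the gamma chain shared by most laminins, carried 31 and 32 sites in HITS-CLIP AEG1 and 32 in PAR-CLIP AEG1, with 0 in every control. LAMB1 ranked 11 and LAMC1 7 by HITS-CLIP sites, the order of their means (29.0 ± 2.83 and 31.5 ± 0.707, SD, n = 2) resting on a difference within the spread of LAMB1. Summed units on LAMB1 were 203 and 171 in HITS-CLIP AEG1 and 332 in PAR-CLIP AEG1. Summed units on LAMC1 were 215 and 225 in HITS-CLIP AEG1 and 469 in PAR-CLIP AEG1. On both mRNAs the PAR-CLIP amount was above either HITS-CLIP amount although the numbers of sites were alike.

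The sites of LAMC1 were spread differently by method. The last HITS-CLIP site ended at nt 5036, whereas PAR-CLIP sites went on to nt 7800. Beyond nt 5036 lay 17 of the 32 PAR-CLIP sites, covering 1291 nt and holding 55 of 469 PAR-CLIP units, or 11.7%. Most of the sites past that point were therefore light ones. The heaviest HITS-CLIP sites were at nt 2962-3067 with 28 units in replicate 1 and at nt 2632-2762 with 26 units in replicate 2, which do not overlap. Replicate 2 had 23 units at nt 2920-3080, across the heaviest site of replicate 1. The heaviest PAR-CLIP site, at nt 1251-2120 with 108 units, lay within the stretch where HITS-CLIP also had sites. On LAMB1 both replicates had their heaviest site at one place, nt 746-825 with 19 units and nt 748-862 with 18, and that of PAR-CLIP was at nt 1672-2187 with 37.

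LAMA5, the alpha chain of laminins common in mature epithelia, carried 20 and 19 sites in HITS-CLIP AEG1 and 39 in PAR-CLIP AEG1, with 0 in every control. Its units summed to 74 and 70 in HITS-CLIP AEG1 and 91 in PAR-CLIP AEG1, spread thinly over a stretch of 11282 nt. The heaviest site held 9 units in each of the 3 AEG1 libraries, at nt 728-769 and nt 6881-6936 in the HITS-CLIP replicates and nt 11207-11282 in PAR-CLIP AEG1, which are different places. The other LAMA5 sites of PAR-CLIP AEG1 held 1 to 4 units, so its heaviest stood apart, and in the HITS-CLIP AEG1 libraries the next heaviest held 7 and 8. LAMA1, an alpha chain best known from early embryonic basement membranes, had no site in any library, which says nothing of whether its mRNA was present.

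LAMB2, the beta chain found at the neuromuscular junction and in the kidney filter, had few sites and a single heavy one. It carried 2 and 1 sites in HITS-CLIP AEG1 and 9 in PAR-CLIP AEG1, with 0 in every control. In HITS-CLIP AEG1 the amount sat at nt 2380-2417 in replicate 1, with 8 of 9 units, and at nt 2379-2440 in replicate 2, with 9 of 9. PAR-CLIP AEG1 had a site there as well, at nt 2359-2435, with 2 of its 14 units. Its other PAR-CLIP sites held 1 to 3 units each, the heaviest being nt 530-594 with 3. The replicates thus placed nearly all of their LAMB2 amount on a stretch that was one of several in PAR-CLIP.

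AGRN encodes agrin, the heparan sulfate proteoglycan that clusters acetylcholine receptors at the neuromuscular junction and also occurs in other basement membranes. It carried 49 and 35 sites in HITS-CLIP AEG1 and 41 in PAR-CLIP AEG1, with 0 in every control, so the PAR-CLIP number lay between the replicates. Summed units were 451 and 418 in HITS-CLIP AEG1, both above the 368 of PAR-CLIP AEG1. It was the only member of 8 with that order in both replicates. Sites of both methods ran over the same stretch, the last HITS-CLIP site ending at nt 7265 and the last PAR-CLIP site at nt 7316. One stretch was heavy in all 3 libraries, with 31 units at nt 5566-5719 in replicate 1, 38 at nt 5595-5848 in replicate 2 and 32 at nt 5562-5886 in PAR-CLIP AEG1. The heaviest sites of replicate 1 and of PAR-CLIP AEG1 lay elsewhere, at nt 2048-2214 with 32 units and at nt 2511-3068 with 48.

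HSPG2 encodes perlecan, the large heparan sulfate proteoglycan of most basement membranes. It carried 26 and 17 sites in HITS-CLIP AEG1 and 42 in PAR-CLIP AEG1, with 0 in every control. It ranked 28 of 2243 by HITS-CLIP sites and 37 of 8009 by PAR-CLIP sites, the highest PAR-CLIP rank of the members. Summed units were 121 and 89 in HITS-CLIP AEG1 and 128 in PAR-CLIP AEG1, over a stretch of 13876 nt. The heaviest HITS-CLIP site was near the same base in both replicates, at nt 960-1061 with 12 units and at nt 985-1045 with 15, and in replicate 1 a neighbour at nt 1095-1157 also held 12. PAR-CLIP AEG1 had 8 units at nt 982-1179 and its heaviest site at nt 130-353, with 12. A second place repeated at nt 10553-10593 with 7 units in replicate 1 and nt 10541-10592 with 10 in replicate 2, where PAR-CLIP AEG1 had 8 units at nt 10542-10744.

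NID1, nidogen, links laminin to type IV collagen. It carried 27 and 19 sites in HITS-CLIP AEG1 and 23 in PAR-CLIP AEG1, with 0 in every control. Summed units were 246 and 157 in HITS-CLIP AEG1 and 461 in PAR-CLIP AEG1, the lowest HITS-CLIP to PAR-CLIP ratio of the members. The HITS-CLIP mean was 201.5 ± 62.9 units (SD, n = 2). The heaviest HITS-CLIP sites overlapped, at nt 858-998 with 48 units and nt 916-1029 with 27, and that of PAR-CLIP AEG1 was nt 2772-3864 with 132. As on LAMC1, PAR-CLIP went further: HITS-CLIP sites ended at nt 3849, and 11 of 23 PAR-CLIP sites, with 83 of 461 units or 18.0%, lay between there and nt 5527.

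COL4A2, a chain of type IV collagen, had 1 site in the first HITS-CLIP AEG1 library, 0 in the second and 0 in every other library. The site was 21 nt long, at nt 3005-3025. The median width of all sites was 51 and 52 nt in HITS-CLIP AEG1 and 21 and 21 nt in the HITS-CLIP negative controls. Its score of 14.43 was the highest of any member site, and a score cannot be set against other genes. A lone site allows no units to be fitted.

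**Figure D2:**
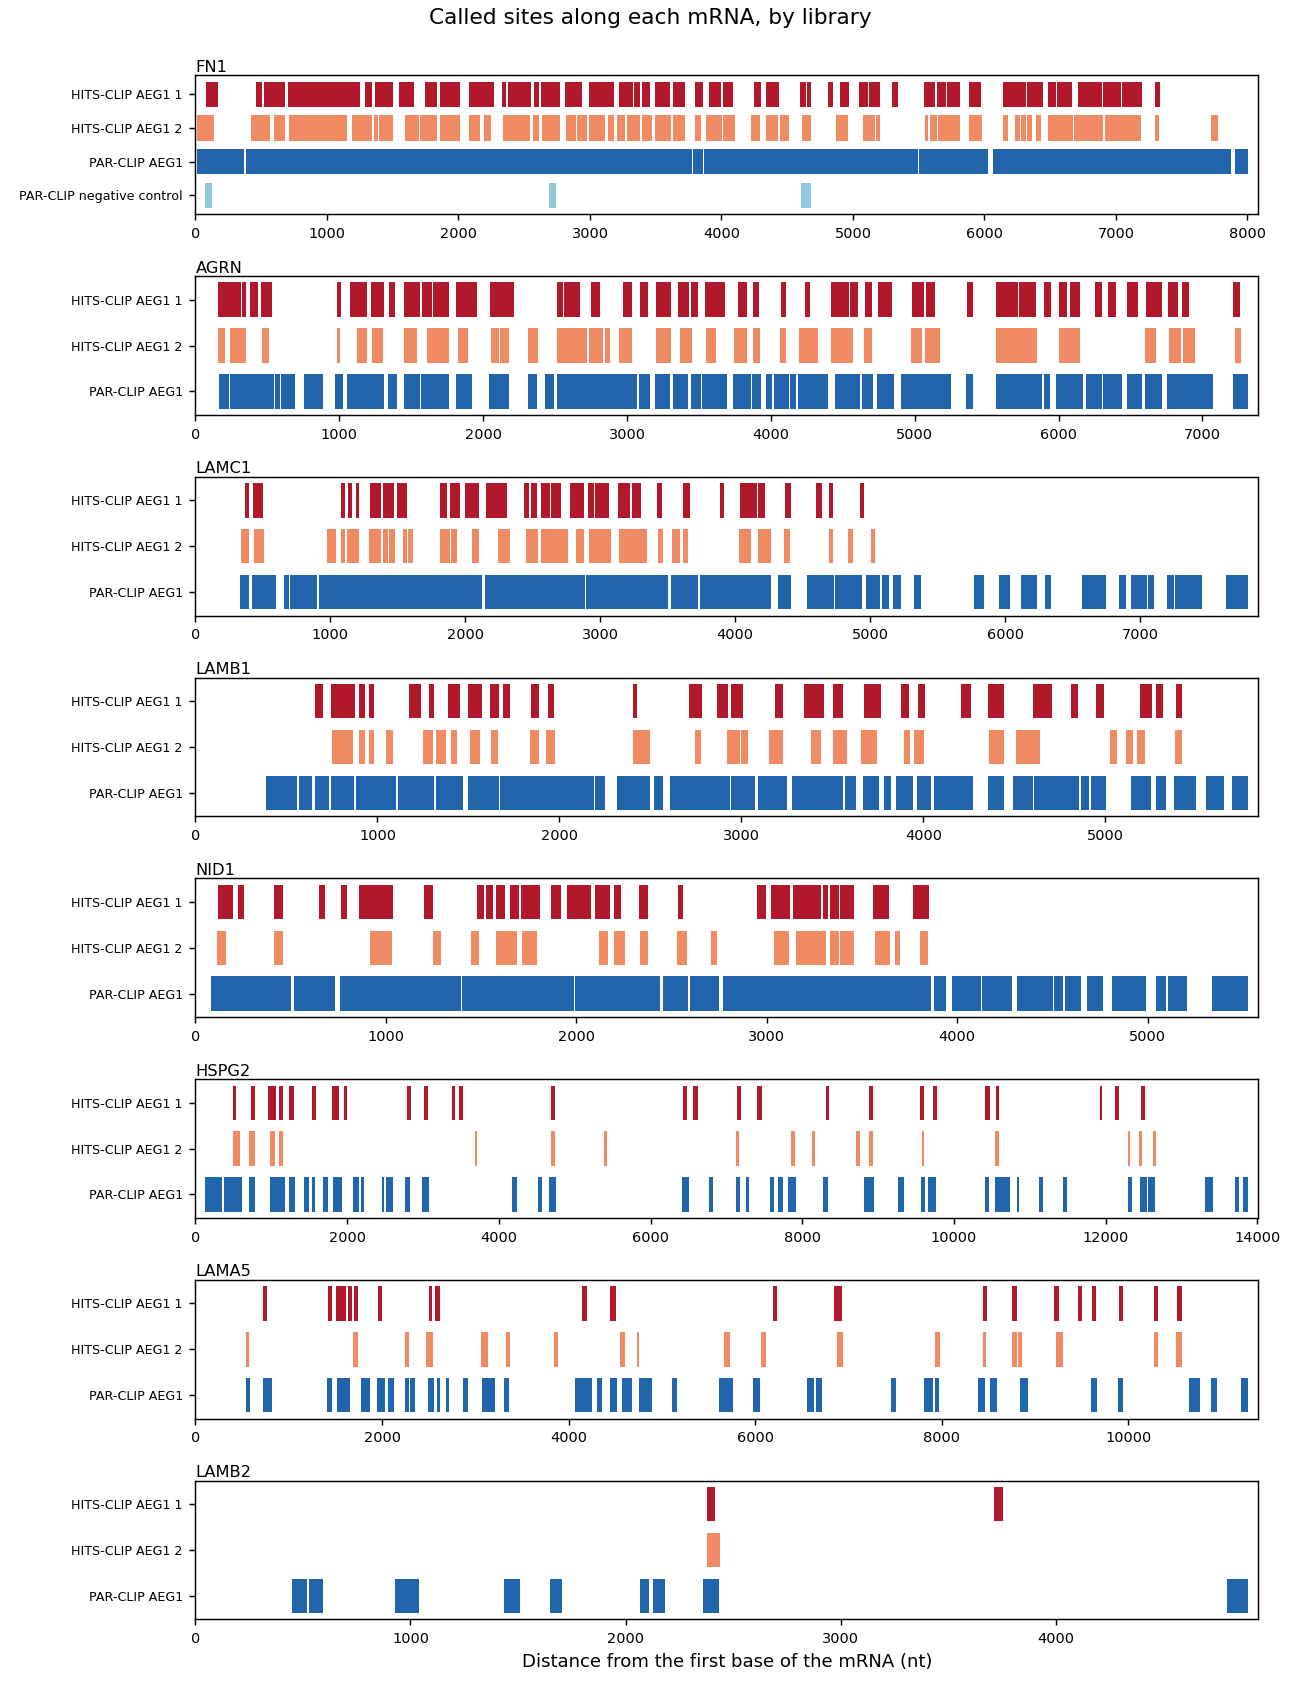
Position of every called site (bars, to scale, x axis in nt from the first base of the mRNA) on the 8 members with sites in both methods, 1 row per library with a site. PAR-CLIP AEG1 covers FN1 almost without gaps, LAMC1 and NID1 have PAR-CLIP sites beyond the last HITS-CLIP site at nt 5036 and nt 3849, and LAMB2 has its repeated HITS-CLIP site at nt 2380-2417.

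The HITS-CLIP replicates found largely the same places on the members. Of the 242 member sites in replicate 1, 183 shared at least 1 nt with a site of replicate 2, or 75.6% (exact 95% interval 69.7% to 80.9%), beside 63.2% over all genes. In the other direction it was 173 of 208, or 83.2% (77.4% to 88.0%), beside 71.3% over all genes. Sites of 1 mRNA are not independent, and these intervals cover counting error only. Repeatability differed among the members: 53 of 55 sites of FN1, 28 of 31 of LAMC1, 40 of 49 of AGRN, 24 of 31 of LAMB1 and 19 of 27 of NID1 were repeated. For the 2 longest mRNAs it was 10 of 26 in HSPG2 and 8 of 20 in LAMA5, and for LAMB2 1 of 2. Replicate 2 covered 60.4% of FN1 and 8.73% of LAMA5, and the part of coverage in these shares was not tested. The heaviest site was at an overlapping place in both replicates on 5 of the 8 members, namely FN1, LAMB1, LAMB2, HSPG2 and NID1. For the 110 pairs of member sites that overlapped one to one, the replicate scores differed by a median of 0 with an SD of 1.21 on the log2 scale, and 67 pairs (60.9%) lay within 1.

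HITS-CLIP sites mostly touched a PAR-CLIP site on the members, and the heaviest sites of the methods seldom met. Of the 183 repeated sites, 177 overlapped a PAR-CLIP AEG1 site, or 96.7% (exact 95% interval 93.0% to 98.8%), beside 93.1% over all genes. When each site had to cover at least 50% of the other, between replicates as well, 51.7% of replicate 1 sites were repeated. Of the sites repeated by that rule, 15.2% overlapped a PAR-CLIP AEG1 site. The HITS-CLIP AEG1 sites covered 24.9% and 22.4% of the 64481 nt of the 8 members up to their furthest site ends, and the PAR-CLIP AEG1 sites 55.3%. PAR-CLIP cover was higher on the members with most repeated sites: 98.7% on FN1, 76.2% on AGRN, 72.4% on LAMC1, 78.1% on LAMB1 and 90.3% on NID1. It was 25.4% on HSPG2, 25.2% on LAMA5 and 13.2% on LAMB2. The part of coverage in the overlap was not tested. Conversely, 137 of 231 PAR-CLIP member sites, or 59.3% (52.7% to 65.7%), overlapped a site of either HITS-CLIP AEG1 library, beside 26.2% of 14709 PAR-CLIP sites on the mRNAs with a site in both HITS-CLIP AEG1 libraries. Those mRNAs had a median of 1.23 HITS-CLIP sites per kb against 4.10 on the members, and the part of site density in this difference was not tested. Over all genes the share was 7.50%, most of them having no HITS-CLIP site to overlap. The heaviest PAR-CLIP site overlapped the heaviest site of replicate 1 on 1 of 8 members, FN1, by its edge, and that of replicate 2 on 0 of 8.

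**Figure D3:**
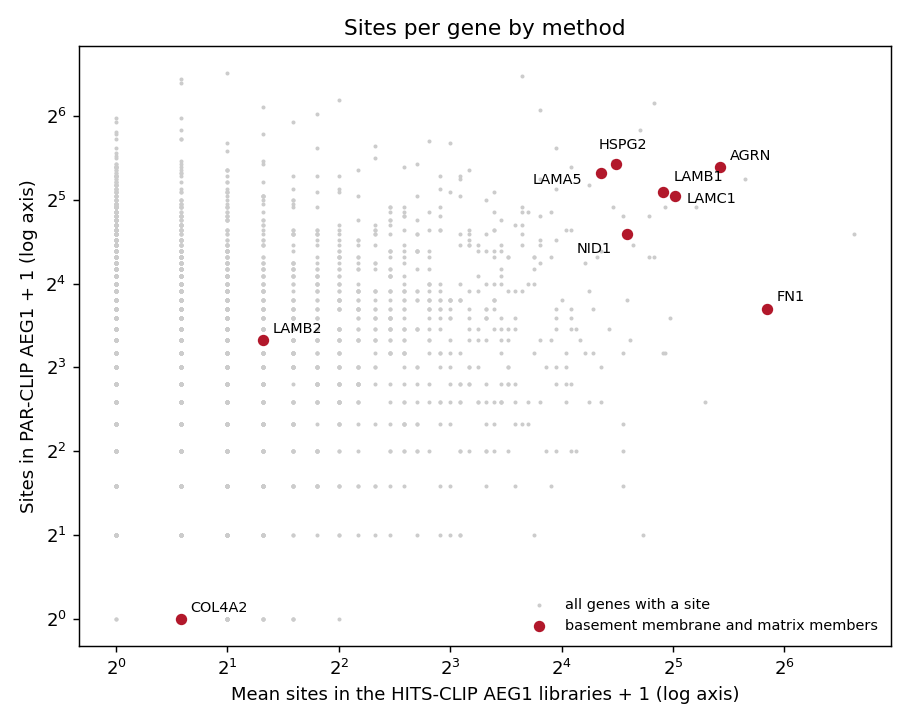
Mean number of sites in the 2 HITS-CLIP AEG1 libraries (x axis) against the number in PAR-CLIP AEG1 (y axis), each plus 1 on a log axis, for 8204 genes in grey and the 9 members with a site in red. AGRN, LAMC1, LAMB1, NID1, HSPG2 and LAMA5 lie at the upper right, FN1 has many HITS-CLIP sites for its 12 PAR-CLIP sites, and LAMB2 and COL4A2 lie among genes with few HITS-CLIP sites.

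The ratio of summed units removes the constant of the mRNA and sets the methods side by side. Mean HITS-CLIP AEG1 units over PAR-CLIP AEG1 units were 1.18 for AGRN, 0.949 for FN1, 0.820 for HSPG2, 0.791 for LAMA5, 0.643 for LAMB2, 0.563 for LAMB1, 0.469 for LAMC1 and 0.437 for NID1. The median over the 8 members was 0.717, beside 0.210 over 853 genes with at least 5 units in both methods (quartiles 0.114 and 0.416). All 8 lay above the upper quartile of those genes, with 93.7% of genes below AGRN and 75.8% below NID1. A high ratio was not particular to the members. Among the other matrix genes named below it was 1.54 for GPC3, 1.39 for FBLN1, 1.38 for P4HB, 1.34 for COL18A1 and 1.22 for THBS1. It was lower for PLOD3 (0.575), ITGB1 (0.435), ITGAV (0.188), ITGA1 (0.1875), LAMB3 (0.119) and PLOD2 (0.0645). The ratio is not scaled for the depth of the libraries, whose units summed to 55325 and 51304 in HITS-CLIP AEG1 and 290769 in PAR-CLIP AEG1, and with 1 PAR-CLIP library it has no test.

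**Figure D4:**
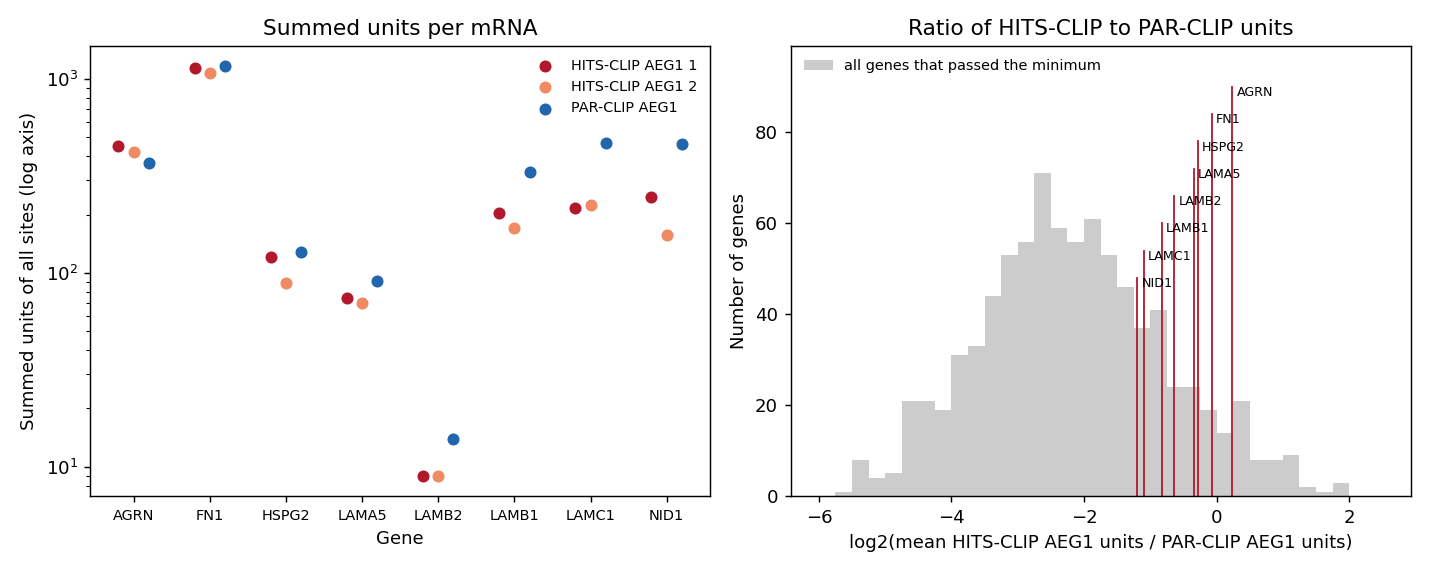
Left: summed units (y axis, log) of each of 8 members in the 2 HITS-CLIP AEG1 libraries and PAR-CLIP AEG1, 1 point per library. Right: histogram of log2 of mean HITS-CLIP AEG1 units over PAR-CLIP AEG1 units for 853 genes (number of genes on the y axis), with lines for the members. Members run from NID1 at a ratio of 0.437 to AGRN at 1.18, all above the upper quartile of the genes, 0.416.

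The members are long mRNAs, which bears on any count of sites. The 8 members with sites in both HITS-CLIP AEG1 libraries reached a median of 7558 nt from the first base to the furthest site, against 2344 nt over the 1321 genes with a site in both. Their median number of sites was 26 in HITS-CLIP AEG1 and 32.5 in PAR-CLIP AEG1, against 2 and 9 over the 1321 genes. Per kb of that stretch the HITS-CLIP median stayed higher, at 4.10 sites against 1.23, while the PAR-CLIP median was 3.78 against 4.07. Within the members HITS-CLIP sites per kb ran from 7.06 on FN1, 5.74 on AGRN and 5.01 on LAMB1 through 4.16 on NID1 and 4.04 on LAMC1 to 1.73 on LAMA5, 1.55 on HSPG2 and 0.306 on LAMB2. Ranked per kb, no member stood in the top 50 of the 2243 genes. FN1 came at 51, AGRN at 95, LAMB1 at 123, NID1 at 172, LAMC1 at 187, LAMA5 at 547, HSPG2 at 609, LAMB2 at 1500 and COL4A2 at 1896. The length of each whole mRNA was not analysed here, so the furthest site end stands in for it.

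Along the mRNA, the median HITS-CLIP midpoint was nearer the 5′ end than the PAR-CLIP one on 6 of 8 members, beside 66.5% of 2050 genes with sites in both methods. Among genes with at least 10 sites in each HITS-CLIP AEG1 library and 5 in PAR-CLIP AEG1 the background was 73.5% of 98. The members are therefore close to other genes in this respect. The gap was widest on LAMC1, with medians at nt 2594 in HITS-CLIP and nt 5155 in PAR-CLIP, and on NID1, with nt 2139 and nt 3317.5. On FN1 the medians were nt 3820.5 and nt 4365, and on LAMA5 (nt 5699 and nt 4591.5) and LAMB2 (nt 2409 and nt 1676.5) the order was the opposite. More than 25% of PAR-CLIP sites lay beyond the last HITS-CLIP site on LAMC1 and NID1, 2 of 7 members, beside 34.7% of those 98 genes. The boundaries of coding sequence and UTR were not analysed here.

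Other genes of the matrix were taken from 6 lists. Of 7 other laminin chains, 1 had a site in both HITS-CLIP AEG1 libraries. This was LAMB3, a beta chain of epithelial anchoring laminins, with 6 and 5 sites and 32 in PAR-CLIP AEG1. LAMA3, the alpha chain of the same laminins, had 0 and 1, and 12 in PAR-CLIP AEG1. Of 8 other basement membrane collagens and nidogen, only COL18A1, whose end fragment is endostatin, had any site, with 13 and 13 in HITS-CLIP AEG1 and 18 in PAR-CLIP AEG1. COL4A1, the usual partner of COL4A2, had none. Of 10 interstitial collagens 0 had a site in both HITS-CLIP AEG1 libraries, and the list held 0 and 1 sites there and 1 in PAR-CLIP AEG1, on COL5A2. The collagens and the laminins thus differed within their own families, with few members carrying nearly all sites.

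Of 18 other matrix glycoproteins and proteoglycans, 7 had a site in both HITS-CLIP AEG1 libraries. THBS1, thrombospondin, had 26 and 29 sites there and 19 in PAR-CLIP AEG1. GPC3, glypican-3, had 14 and 15 against 3, and FBLN1, fibulin-1, had 13 and 9 against 5, so like FN1 these had more sites in both HITS-CLIP AEG1 libraries than in PAR-CLIP AEG1. Of 14 matrix receptors, 11 had a site in both. ITGAV had 18 and 18 sites in HITS-CLIP AEG1 and 35 in PAR-CLIP AEG1, ITGB1 19 and 13 against 11, and ITGA1 12 and 10 against 25, all being integrin chains. Of 18 enzymes that process collagen and matrix, 10 had a site in both, among them P4HB, a protein disulfide isomerase that is also a subunit of collagen prolyl hydroxylase, with 17 and 15 against 3 and 1 site each in HITS-CLIP negative control 2 and the PAR-CLIP negative control. The lysyl hydroxylases PLOD3 and PLOD2 had 14 and 11 against 15, and 5 and 4 against 17. Of all genes with any site, 16.1% had one in both HITS-CLIP AEG1 libraries. Among listed genes with any site it was 8 of 9 members, 11 of 12 receptors and 10 of 12 enzymes without GLT25D1. It was 7 of 10 other glycoproteins and proteoglycans and 1 of 2 other laminin chains. For the other basement membrane collagens and nidogen it was 1 of 1, and for the interstitial collagens 0 of 1. No test was made of these counts.

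The genes whose numbers of sites over the 6 libraries came nearest to each member, by Euclidean distance of log2(sites + 1), included other members. LAMB1 and LAMC1 were near each other (distance 0.241), with PLXNB2, a plexin receptor, nearest to both at 0.188 and 0.232. LAMA5 was nearest to ITGAV (0.222) and CPD (0.244), with HSPG2 at 0.407, and HSPG2 was nearest to LAMA5, then CPD (0.508) and LRP1 (0.549). AGRN was nearest to IGF2R (0.419), then LAMC1 and LAMB1, and NID1 to CP, ceruloplasmin (0.462). The near-identical complement genes C4A and C4B also came close to NID1, at 0.639 and 0.604, and C4B was the third gene near LAMB1 and LAMC1, though reads of that pair may be split between them. FN1 had no near neighbour: APOB (1.73), A2M (1.75) and SPTBN1 (1.84) were the closest. LAMB2 and COL4A2, with few sites, shared their exact pattern with 4 and 59 genes. With 3 of the 6 libraries at or near 0 for most genes, these distances rest mainly on the AEG1 libraries.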

How the data were processed

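Each of the 6 deposited files lists the sites of 1 library, giving the mRNA, its gene symbol, both ends of the site and a score. Per the labels' protocols, RNA was partly digested with RNase I, precipitated with an anti-HA antibody, recovered from nitrocellulose and made into libraries with a small RNA kit for single-read Illumina sequencing. Bowtie, with no version, appears in the submitters' processing notes. Not given in the sources used here are the reference, how sites were called and at what threshold, whether controls were subtracted, and how repeated reads were treated. The score deposited by the authors is on a log2 scale, as its values show, with a normalization that these sources do not state. Since read depth is not given either, the number of sites per library is the depth used, and no count model was run.

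Sites were taken by gene symbol. Starts were read as 0-based and printed 1-based, in nt of the mRNA. Widths and covered nt count each base once. Of 8204 mRNAs, 8146 matched a RefSeq gene table by accession, 30 by symbol and 20 by synonym, and 8 kept their symbol. Units were fitted on mRNAs with at least 6 sites, within a relative tolerance of 6e-05, and 61807 of 61811 sites were whole. Unit ratios were limited to genes with at least 5 units in mean HITS-CLIP AEG1 and in PAR-CLIP AEG1. Overlap means at least 1 nt. Intervals of shares are exact (Clopper-Pearson, 95%) and cover only counting error. The calculations ran in Python 3.11.15 with numpy 2.4.6 and scipy 1.17.1, and unit recovery and overlaps were tested on simulated data. p-values measure only the spread between these samples, which may be technical.

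The members and lists were chosen with earlier results of these data known. The genes named are the 10 members, the 3 of each wider list with most HITS-CLIP AEG1 sites under the symbols searched, and the 3 nearest to each member, where tied patterns are given as counts. GLT25D1, the older symbol of COLGALT1, was named in addition. Marker lists followed the same rule. The alternatives are described in the closing section.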

Additional observations from a re-analysis of the deposited data

How the results depend on the processing

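Of 47 alternatives over 8 results, 36 kept their side of the test, or moved by less than 1 SD, the 95% interval or, for counts of genes, 1.5 times. The other 11 moved and none turned a direction. With sites above the median score alone, HITS-CLIP AEG1 minus control came to 80.5 sites (225 otherwise, p = 0.333 by the exact permutation test in both), PAR-CLIP AEG1 minus control to 119 (228 otherwise), the share of replicate 1 sites overlapped by replicate 2 to 57.8%, that of repeated sites overlapped by PAR-CLIP to 86.5%, and the HITS-CLIP share of all sites to 2.99%. The score has a scale of its own on each mRNA, and this cut removed every HITS-CLIP AEG1 site of FN1. The cause of the other shifts was not tested. With sites longer than 25 nt alone, the HITS-CLIP share was 3.99%. When each site had to cover at least 50% of the other, replicate overlap was 51.7%, and PAR-CLIP overlap was 15.2% of the sites repeated by that rule. Member sites had median widths of 56 and 58 nt in HITS-CLIP AEG1 and 90 nt in PAR-CLIP AEG1. In covered nt, PAR-CLIP AEG1 minus control was 35466 nt, and the shares were 4.08% in HITS-CLIP AEG1 and 0.622% in PAR-CLIP AEG1. Replicate overlap read the other way was 83.2%. Leaving out 1 library gave 208 to 242 HITS-CLIP sites over control, with no test, 8 to 9 members present, a share of 3.68% to 3.79% and 5 to 6 members with the 5′ order. The replicate block left 225 sites, with an exact permutation p = 0.5, the smallest it allows. That fit pairs libraries by number alone, and the control values of 0 and 0 give no sign of pairing. The shallow controls and the single PAR-CLIP library limit every comparison. LAMB2 and COL4A2 rest on 1 or 2 HITS-CLIP sites.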
